A study of Mus musculus with 28 samples.

Results

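Afp, H19, Igf2, Gpc3, Dlk1 and Igf2bp3 are genes of the fetal liver, the oncofetal group, and were followed through every library of a study of focal adhesion kinase (FAK, gene Ptk2) in mouse liver. The members were the rows bearing these gene names, 6 of the 35275 genes in each of 2 count tables, and each name matched 1 row. The DDC table held 12 whole-liver libraries of FVB FAK fl/fl mice fed 0.1% DDC, a diet that injures the bile ducts, for 4 to 8 weeks. In 3 Virus KO mice an AAV8-TBG-Cre vector had removed FAK from hepatocytes, and the 3 Virus WT mice had received AAV8-TBG-Null. Both Virus groups lacked Alb-Cre, and feeding began 2 weeks after the vector. In 3 Bred KO mice Alb-Cre, driven by the albumin promoter, had removed FAK from fetal life onward in hepatocytes and cholangiocytes, while the 3 Bred WT mice had no Alb-Cre. The unfed table held 4 libraries each of hepatocyte KO, hepatocyte WT, tissue KO and tissue WT, that is isolated hepatocytes or whole liver of FAK fl/fl mice with (KO) or without (WT) Alb-Cre, aged 6 to 8 weeks. The age of the DDC mice and the feeding time of each mouse were not given in the sources used here.

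The oncofetal genes are active in the liver of the fetus, are silenced after birth, and can return in injured liver and in liver cancer. Afp encodes alpha-fetoprotein, the main serum protein of the fetus and a relative of albumin. H19 and Igf2 are neighbours in an imprinted region: H19 is a non-coding RNA read from the maternal copy, and Igf2, a growth factor of the insulin family, is read from the paternal copy. Dlk1, a membrane protein related to the Notch ligands and a marker of hepatoblasts, is also imprinted and read from the paternal copy. Gpc3, glypican 3, is a heparan sulfate proteoglycan of the cell surface. Igf2bp3 is an RNA-binding protein that was named for its binding of the Igf2 message.

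In build mm10 the files placed Afp on chromosome 5 from 90490714 to 90508907 (ENSMUSG00000054932) and H19 on chromosome 7 from 142575529 to 142578143 (ENSMUSG00000000031). Igf2 lay on chromosome 7 from 142650766 to 142666816 (ENSMUSG00000048583), 72622 bases from H19. Gpc3 lay on chromosome X from 52272426 to 52613950 (ENSMUSG00000055653), and Dlk1 on chromosome 12 from 109452823 to 109463336 (ENSMUSG00000040856). Igf2bp3 lay on chromosome 6 from 49085221 to 49214954 (ENSMUSG00000029814). In the GENCODE annotation its end overlaps Malsu1 on the opposite strand, which reached 573 counts in a library, and the strand setting of the counting was not given in the sources used here, so the counts of Igf2bp3 are uncertain to that extent. Igf2os, antisense to Igf2, had at most 2 counts in a library, and Gm14582, antisense to Gpc3, at most 3.

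H19 is also the precursor of a microRNA, miR-675. The miR-675 hairpin lies within an exon of 3 of the 7 GENCODE transcripts of H19. Its mature strands, from RefSeq (GRCm38.p6, minus strand), are shown because H19 had the largest fold changes of the 6 genes between Bred KO and Bred WT and between DDC-fed and unfed liver. In Virus KO against Virus WT its change was the smallest of the 6. Mir675 itself has no row in the tables, and its level was not measured. Capitals mark the seed, bases 2 to 8.
mmu-miR-675-5p, chr7:142577112-142577133: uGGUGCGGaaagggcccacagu
mmu-miR-675-3p, chr7:142577078-142577099: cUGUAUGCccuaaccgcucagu
The 2 strands have different seeds, GGUGCGG and UGUAUGC.

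Promoters of 5 of the 6 members matched the RefSeq promoter table (GRCm38.p6), from 250 bases before to 50 bases after the gene start. They were searched on both strands for TATAAA, the core of the box that places the start of transcription, GTTAAT, part of the site of the liver factor HNF1, GGGCGG, the core of the site of Sp factors, CCAAT, the core of the site of NF-Y, and CACGTG, an E box. No motif contains another. Among 32851 promoters of this length, 13.6% held TATAAA, 7.1% held GTTAAT, 35.7% held GGGCGG, 37.4% held CCAAT and 7.15% held CACGTG. The promoters of 3 members whose edgeR calls on DDC against unfed liver differed are shown with every match in capitals: Afp (no call), Gpc3 (a call in KO) and Igf2bp3 (a call in each genotype). limma did call Afp. In the fit reported, edgeR called no member for a difference between the genotypes in the change on DDC.
Afp, chr5:90490464-90490763, plus strand: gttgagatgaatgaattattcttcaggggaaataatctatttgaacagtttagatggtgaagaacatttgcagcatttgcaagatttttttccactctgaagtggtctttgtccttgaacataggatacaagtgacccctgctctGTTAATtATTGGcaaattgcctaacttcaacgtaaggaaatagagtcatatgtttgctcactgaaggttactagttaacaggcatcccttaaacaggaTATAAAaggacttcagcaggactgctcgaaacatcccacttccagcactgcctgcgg
Gpc3, chrX:52613925-52614224, minus strand: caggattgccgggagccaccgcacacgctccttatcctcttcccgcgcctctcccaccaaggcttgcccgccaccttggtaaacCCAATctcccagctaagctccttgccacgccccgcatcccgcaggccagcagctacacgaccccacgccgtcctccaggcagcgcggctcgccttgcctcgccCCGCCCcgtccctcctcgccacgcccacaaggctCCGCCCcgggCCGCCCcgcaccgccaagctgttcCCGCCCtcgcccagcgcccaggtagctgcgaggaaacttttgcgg
Igf2bp3, chr6:49214905-49215204, minus strand: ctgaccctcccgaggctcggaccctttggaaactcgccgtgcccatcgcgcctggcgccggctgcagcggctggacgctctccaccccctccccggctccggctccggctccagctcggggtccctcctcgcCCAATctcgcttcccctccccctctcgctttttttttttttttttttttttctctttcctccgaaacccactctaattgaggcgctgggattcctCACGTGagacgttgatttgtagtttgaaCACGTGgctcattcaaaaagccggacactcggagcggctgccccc
The Afp window held 1 TATAAA, 1 GTTAAT and 1 CCAAT match and had 40% G and C. The Gpc3 window held 4 GGGCGG matches and 1 CCAAT match in 70.7% G and C. The Igf2bp3 window held 2 CACGTG matches and 1 CCAAT match. A match describes these letters and is not a binding site.

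Library totals ran from 11162678 to 20428773 counts. Ptk2 was lower in KO than in WT in all 4 pairs of groups, by a log2 change of -1.70 in Bred, -1.26 in Virus, -2.53 in hepatocytes and -1.99 in tissue, each called by edgeR. Summed FPKM (counts scaled to gene length and library total) of 7 hepatocyte markers was 22144 or more in every library. In whole liver a change in the number of cells that express a gene and a change in RNA per cell cannot be told apart.

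On DDC, Bred KO livers had more H19 than Bred WT livers. H19 had 209, 107 and 130 FPKM in the 3 Bred KO livers, against 27.4, 31.5 and 14.7 FPKM in the 3 Bred WT livers. Every Bred KO liver was above every Bred WT liver. The mean was 149 ± 53.5 FPKM in Bred KO and 24.6 ± 8.74 FPKM in Bred WT (SD, n = 3 each). The log2 fold change was 2.46 ± 0.55 (standard error, edgeR adjusted p = 0.0253), a 5.49-fold higher level in Bred KO. Among all genes ordered by FPKM, H19 ranked between 322 and 595 in the Bred KO livers and between 1981 and 3597 in the Bred WT livers. H19 was 1 of 6 members called, in either direction, where 6.25% of 13955 genes were called. The H19 call was lost without Bred WT replicate 1 (edgeR adjusted p = 0.062) and without Bred WT replicate 3 (edgeR adjusted p = 0.0579). It was also lost with the Bred libraries fitted alone (edgeR adjusted p = 0.0607), a fit that called 0 of 13524 genes. The log2 change of H19 stayed between 2.17 and 2.68 over 13 alternatives.

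The partner of H19 in the imprinted region, Igf2, had 0.807, 1.42 and 0.929 FPKM in Bred KO livers and 0.646, 0.29 and 0.279 FPKM in Bred WT livers. The groups did not overlap, with the first Bred WT liver nearest to the Bred KO range. The log2 change was 1.28 ± 0.36 (edgeR adjusted p = 0.0524), just above the threshold of 0.05, and DESeq2 called it (adjusted p = 0.0133). The range of the adjusted p over 13 alternatives was 0.0133 to 0.192. Gpc3 had 1.99, 1.93 and 1.25 FPKM in Bred KO livers and 0.119, 0.972 and 0.572 FPKM in Bred WT livers, again without overlap. Its log2 change was 1.51 ± 0.50 (edgeR adjusted p = 0.0853), and its adjusted p over 13 alternatives ran from 0.02 to 0.239.

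Dlk1 was low in all livers, with 18, 41 and 17 counts in Bred KO and 16, 12 and 6 counts in Bred WT. The high value of Bred KO replicate 2 stood apart, and the groups met at 17 against 16 counts and overlapped once scaled. The log2 change was 1.06 ± 0.50 (edgeR adjusted p = 0.21). H19, Igf2 and Gpc3 were the 3 of 6 members without overlap between Bred KO and Bred WT, all higher in Bred KO. Of all genes tested, 24.5% had no overlap in either direction. 

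Igf2bp3 and Afp did not follow the other members in Bred mice. Igf2bp3 had 0.966, 0.332 and 0.25 FPKM in Bred KO livers and 1.22, 0.609 and 0.537 FPKM in Bred WT livers. The log2 change was -0.76 ± 0.58 (edgeR adjusted p = 0.457). Afp had 3.81, 2.29 and 1.84 FPKM in Bred KO livers and 4.64, 1.83 and 1.82 FPKM in Bred WT livers, and a log2 change of -0.19 ± 0.35 (edgeR adjusted p = 0.78). In both genes the liver numbered 1 was the highest of its group, in Bred KO and in Bred WT. With lines joining livers of the same number, Igf2bp3 was lower in KO than in WT in 3 of 3 pairs, by -0.53, -0.89 and -1.26 on the log2 scale. The fit with the replicate number as a block called H19 (log2 change 2.49, edgeR adjusted p = 0.024) and no other member, and 1735 genes in all, against 872 without the block. In that fit Igf2 (log2 change 1.31) and Gpc3 (1.67) each had an edgeR adjusted p of 0.0515, just above the threshold.

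**Figure D1:**
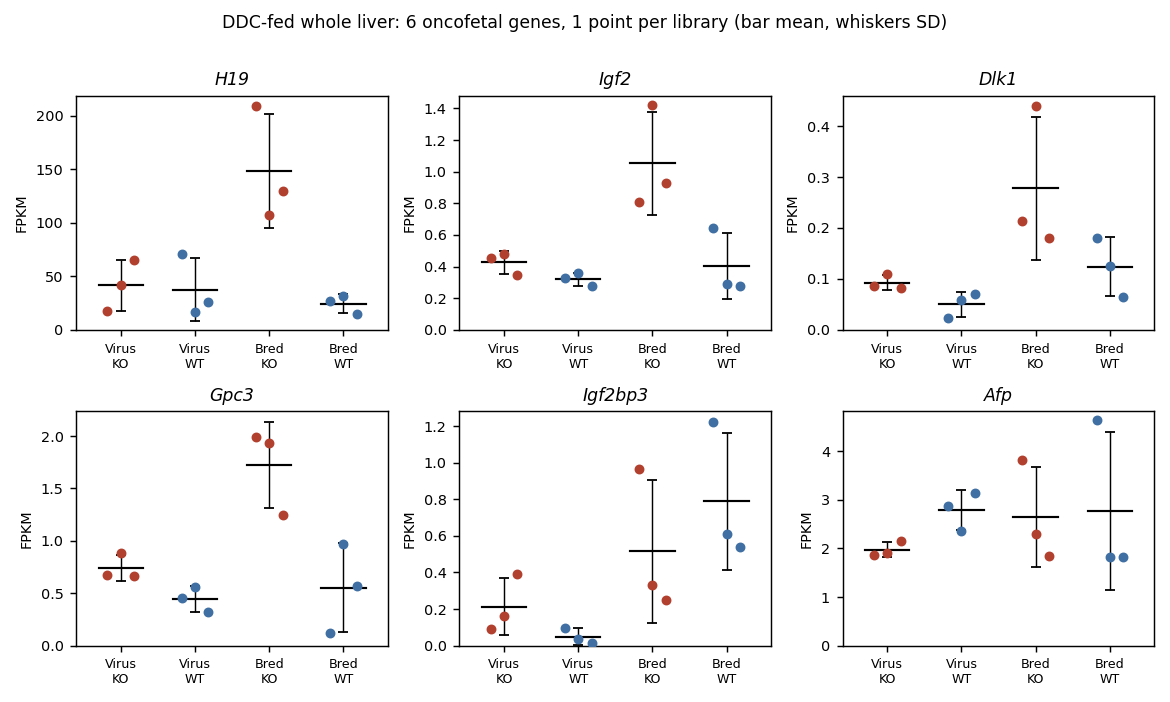
FPKM of the 6 genes in DDC-fed whole liver, 1 point per library, for Virus KO, Virus WT, Bred KO and Bred WT (n = 3 each); bars are means and whiskers SD, cut off at 0. H19 lies between 107 and 209 FPKM in Bred KO livers and at or below 70.9 FPKM in the other 9 libraries.

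**Figure D2:**
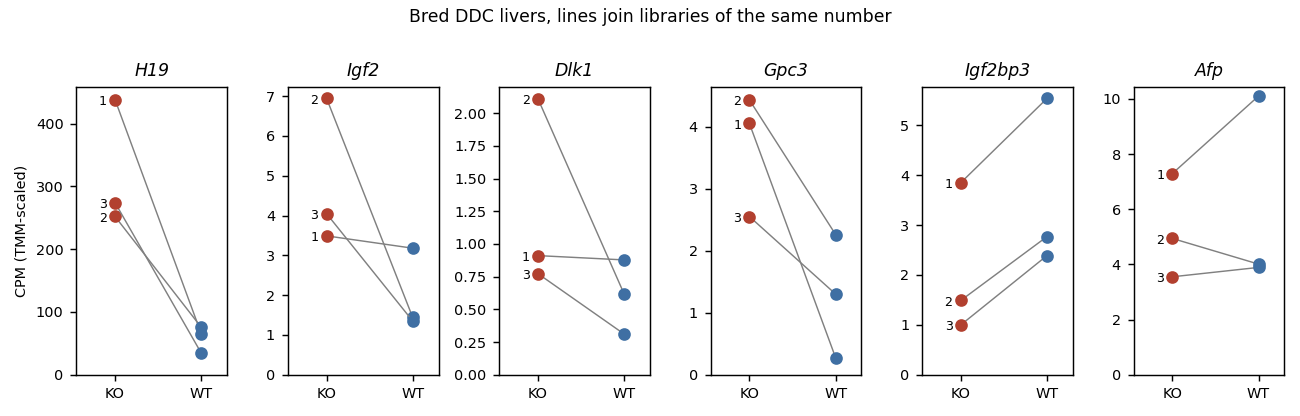
Scaled counts (CPM), with totals scaled by TMM, of the 6 genes in Bred KO and Bred WT livers on DDC, with lines joining libraries of the same replicate number. H19, Igf2, Gpc3 and Dlk1 are higher in KO in 3 of 3 pairs (Dlk1 by 0.05 on the log2 scale in the first pair), and Igf2bp3 is lower in KO in 3 of 3 pairs.

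Markers of stellate cells and fibroblasts, the collagen-forming cells of the liver, moved with H19, Igf2 and Gpc3 in Bred mice. The summed FPKM of all 8 markers was 407, 366 and 438 in Bred KO livers, against 155, 226 and 236 in Bred WT livers, and none of the 8 was at 0. Of the 8 markers 4 were called higher in Bred KO, where 6.25% of all genes were called in either direction. These were Col3a1, a fibrillar collagen (log2 change 1.08, edgeR adjusted p = 0.0212), Pdgfrb, a growth factor receptor (1.07, 0.0381), Des, an intermediate filament (0.77, 0.0399), and Lum, a matrix proteoglycan (0.87, 0.0438). In Virus mice the sums were 324, 252 and 317 in KO and 217, 166 and 200 in WT. These sums did not overlap, while H19 and Igf2 overlapped in Virus mice and Gpc3 did not. There 1 of the 8, Lrat, was called higher, beside 2.66% of all genes (0.93, edgeR adjusted p = 0.0336). Summed biliary markers overlapped in Bred mice, with 55.4 to 121 FPKM in KO and 81.4 to 106 FPKM in WT. Summed endothelial markers did not, with 68.7 to 75.5 FPKM in KO and 55 to 63.3 FPKM in WT, and none of the 6 was called. Of 4 portal fibroblast markers tested 1 was called higher in Bred KO, and of 7 hepatocyte markers 1 was called lower. No marker of the remaining lists was called there. The part of these cells in the H19, Igf2 and Gpc3 values was not tested.

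In Virus mice no member was called between KO and WT by edgeR, where 2.66% of all genes were. At an unadjusted p under 0.05 there was 1 member, Igf2bp3, beside 2612 of 13955 genes. DESeq2 and limma called 0 members, beside 927 of 13406 and 532 of 13955 genes. H19 had 17.7, 41.7 and 65.2 FPKM in Virus KO livers and 70.9, 16.6 and 25.8 FPKM in Virus WT livers. The groups spanned nearly the same range, and the log2 change was -0.04 ± 0.52 (edgeR adjusted p = 0.979). Igf2 had 0.454, 0.483 and 0.347 FPKM in Virus KO and 0.329, 0.357 and 0.277 FPKM in Virus WT (log2 change 0.25 ± 0.38, edgeR adjusted p = 0.772). Gpc3 had 0.675, 0.886 and 0.666 FPKM in Virus KO and 0.459, 0.564 and 0.32 FPKM in Virus WT, and every KO liver was above every WT liver. Its log2 change was 0.55 ± 0.53 (edgeR adjusted p = 0.622). Dlk1, with 7 to 8 counts in Virus KO and 2 to 6 counts in Virus WT, did not overlap either (0.68 ± 0.62, edgeR adjusted p = 0.601).

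Igf2bp3 was sparse in Virus livers, with 8, 11 and 31 counts in KO and 8, 3 and 1 counts in WT (log2 change 1.90 ± 0.81, edgeR adjusted p = 0.233). Afp had 1.86, 1.91 and 2.15 FPKM in Virus KO and 2.88, 2.35 and 3.14 FPKM in Virus WT. Every Virus KO liver was below every Virus WT liver, and the log2 change was -0.66 ± 0.36 (edgeR adjusted p = 0.344). Gpc3, Dlk1 and Afp were thus the 3 of 6 members without overlap, where 32.3% of all genes had none in either direction.

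Averaged over both methods, no member was called between KO and WT on DDC, where 6.41% of genes were. At an unadjusted p under 0.05 there were 4 members, beside 3548 of 13955 genes. DESeq2 called 1 member, beside 1780 of 13406 genes, and limma called 3, beside 1705 of 13955. The nearest were H19 (log2 change 1.21 ± 0.37, edgeR adjusted p = 0.0677), Igf2 (0.76 ± 0.26, 0.092) and Gpc3 (1.03 ± 0.36, 0.0971). Whether the genotype difference itself differed between Virus and Bred was tested as an interaction, and no member was called, where 3.21% of genes were. At an unadjusted p under 0.05 there were 2, H19 and Igf2bp3, beside 2459 of 13955 genes. DESeq2 and limma called 0 members, beside 881 of 13947 and 332 of 13955 genes. For H19 the Virus minus Bred difference was -2.49 ± 0.74 (edgeR adjusted p = 0.0969), with an adjusted p of 0.0269 to 0.245 over 18 alternatives. For Igf2bp3 it was 2.65 ± 1.00 (edgeR adjusted p = 0.18). A difference between the methods in the H19 response was thus not shown.

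Set directly against each other, Virus WT livers had less Igf2bp3 than Bred WT livers. Igf2bp3 had 8, 3 and 1 counts in Virus WT, against 101, 54 and 46 counts in Bred WT. The FPKM was 0.0496 ± 0.0443 in Virus WT and 0.789 ± 0.377 in Bred WT (SD, n = 3 each). The log2 change was -3.91 ± 0.75 (edgeR adjusted p = 0.00511), and it was called under each of the 12 alternatives, with an adjusted p from 3.41e-06 to 0.0234. It was the only one of the 6 members called in this comparison, where 16.4% of genes were called, and the only one without overlap, where 34.9% of genes had none. These 2 groups both kept FAK and differ in the vector and in the animals, which cannot be told apart.

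Between the 2 knockouts all 6 members had lower fitted levels in Virus KO than in Bred KO, and none was called by edgeR, where 3.02% of genes were. At an unadjusted p under 0.05 there were 4, beside 3003 of 13955 genes. H19 differed by -1.84 ± 0.53 (edgeR adjusted p = 0.0754), Igf2 by -1.33 ± 0.36 (0.0648), Dlk1 by -1.62 ± 0.52 (0.102) and Gpc3 by -1.23 ± 0.49 (0.17) on the log2 scale. These 4 did not overlap between Virus KO and Bred KO, where 28.5% of genes had no overlap. DESeq2 called H19 (-1.85, adjusted p = 0.0438) and Igf2 (-1.34, adjusted p = 0.0135), beside 1132 of 13947 genes. Igf2bp3 (-1.26 ± 0.64, edgeR adjusted p = 0.272) and Afp (-0.43 ± 0.36, 0.519) overlapped.

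**Figure D3:**
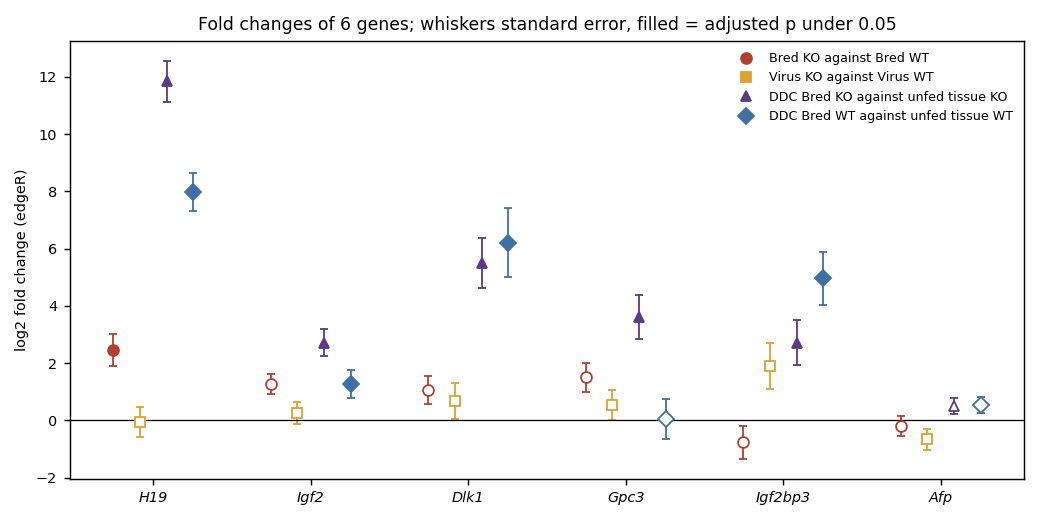
Log2 fold changes with standard errors (edgeR) of the 6 genes in 4 comparisons: Bred KO against Bred WT, Virus KO against Virus WT, and DDC Bred KO or WT against unfed tissue of the same genotype; filled symbols have an adjusted p under 0.05. H19 is the only gene filled for Bred KO against Bred WT (2.46), and it has the largest values against unfed tissue (11.85 in KO and 7.98 in WT).

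The largest differences of these genes were between DDC-fed and unfed liver. Bred KO livers on DDC were set against unfed tissue KO, and Bred WT livers on DDC against unfed tissue WT, in a joint fit of all 28 libraries. Diet, age, experiment and table all differ between these groups and cannot be told apart. Markers of several cell types also moved between them. All 7 biliary markers were called higher on DDC in each genotype, with a summed level of 55.4 to 121 FPKM in Bred KO, against 18.9 to 26.7 in tissue KO, and of 81.4 to 106 FPKM in Bred WT, against 8 to 15.6 in tissue WT. Stellate and fibroblast markers were higher for 7 of 8 in KO (366 to 438 FPKM in Bred KO, 59.5 to 75.4 in tissue KO) and 5 of 8 in WT (155 to 236 FPKM in Bred WT, 42.9 to 77.4 in tissue WT). In both genotypes 5 of 5 proliferation markers and 4 of 5 macrophage markers were higher, and 4 of 7 hepatocyte markers were lower. Beside these marker counts, 61.8% of all genes were called in KO and 45% in WT, in either direction. The part of these cells in the member values was not tested.

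H19 was near the limit of detection in unfed whole liver, with 0, 1, 2 and 1 counts in tissue KO and 0, 5, 1 and 4 counts in tissue WT. It had 8650, 4900 and 6024 counts in Bred KO on DDC and 1192, 1471 and 665 counts in Bred WT on DDC. The ratio of summed CPM, counts scaled to the library total, was 4064 in KO (95% counting interval 1587 to 14916) and 259 in WT (141 to 540). Intervals of this kind cover counting error only. The fitted log2 changes were 11.85 ± 0.72 in KO (edgeR adjusted p = 1.81e-12) and 7.98 ± 0.65 in WT (adjusted p = 4.14e-10).

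Dlk1 was higher on DDC in both genotypes. It had 1 count over the 4 tissue KO libraries and 76 over the 3 Bred KO livers, a ratio of 63.1 with a counting interval of 11 to 2525 (edgeR adjusted p = 1.10e-05). It had 0 counts over the 4 tissue WT libraries, which allows up to 0.0114 FPKM (3 counts over the group), and 34 counts over the 3 Bred WT livers. Set against that floor, Dlk1 was 8.82-fold higher in Bred WT on DDC than in tissue WT (edgeR adjusted p = 2.01e-04). The lower end of its counting interval was 6.79-fold. Igf2bp3 also rose in both, by 2.72 ± 0.79 in KO (edgeR adjusted p = 0.00449) and 4.96 ± 0.93 in WT (adjusted p = 1.05e-04) on the log2 scale. In KO this call was lost without Bred KO replicate 1, the liver with the highest value (log2 change 1.97, adjusted p = 0.0519).

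Igf2 rose in KO livers by 2.72 ± 0.48 (edgeR adjusted p = 3.00e-05), with 69, 135 and 89 counts in Bred KO on DDC and 7, 3, 16 and 11 counts in tissue KO. In WT livers it had 58, 28 and 26 counts on DDC and 4, 7, 6 and 21 counts unfed, and the groups overlapped on the TMM scale of the joint fit, though not in FPKM (0.279 to 0.646 on DDC and 0.0759 to 0.233 unfed). The WT change was 1.28 ± 0.49 (edgeR adjusted p = 0.0366). It was not called with the Bred and tissue libraries fitted alone (adjusted p = 0.059) or without Bred WT replicate 1 (0.246), tissue WT replicate 1 (0.0893), tissue WT replicate 2 (0.0838) or tissue WT replicate 3 (0.0738).

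Gpc3 was called on DDC in KO livers and not in WT livers. It had 80, 86 and 56 counts in Bred KO on DDC and 2, 4, 0 and 9 counts in tissue KO, a log2 change of 3.60 ± 0.77 (edgeR adjusted p = 2.82e-04). It had 5, 44 and 25 counts in Bred WT on DDC and 4, 33, 3 and 18 counts in tissue WT, a change of 0.05 ± 0.70 (edgeR adjusted p = 0.96). The spread in unfed tissue WT was wide, with replicates 2 and 4 above the other 2. The difference between the genotypes in this change was 3.55 ± 1.06 (edgeR adjusted p = 0.0597, range over 20 alternatives 0.00626 to 0.517), so it did not pass.

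Afp, the classical member of the group, had 3.81, 2.29 and 1.84 FPKM in Bred KO on DDC and 1.56, 1.24, 1.67 and 1.25 FPKM in tissue KO. Its log2 change was 0.49 ± 0.28 in KO (edgeR adjusted p = 0.135) and 0.55 ± 0.28 in WT (adjusted p = 0.113). limma on log2(FPKM + 1) called it higher in KO (0.56, adjusted p = 0.0116) and in WT (0.51, 0.0262). edgeR also called it without Bred KO replicate 3 (0.71, adjusted p = 0.0499), and without Bred WT replicate 2 (0.77, 0.0439) or replicate 3 (0.79, 0.041), while without Bred WT replicate 1 the WT change was -0.03 (0.926). Whether Afp was higher on DDC thus depended on the tool and on single libraries. In all, 5 of 6 members were called higher on DDC in KO, where 61.8% of 14303 genes were called in either direction, and 4 of 6 in WT, where 45% were. On the TMM scale of the joint fit, 5 of 6 members were higher without overlap in KO, where 61.3% of genes had no overlap in either direction, and 3 of 6 in WT, where 40.4% had none. In FPKM, the scale of the values above, Afp did not overlap either, and the counts were 6 of 6 in KO, where 62.7% of genes had no overlap, and 5 of 6 in WT, where 44.1% had none. No member was called for a difference between the genotypes in the change on DDC, where 3.23% of genes were. At an unadjusted p under 0.05 there were 3, H19, Igf2 and Gpc3, beside 3041 of 14303 genes. DESeq2 called 1 member, beside 1110 of 11529 genes, and limma called 3, beside 949 of 14303.

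In unfed liver Afp was the only member that passed the count filter, which asks for about 10 counts in enough libraries. The other 5 were compared by the exact two-sided permutation test on log2(CPM + 1), in 20 tests adjusted together, with 0.0286 as the smallest p that 4 against 4 libraries allow. No test passed after adjustment, with adjusted p from 0.286 to 1. At least 12 of the 20 tests would have had to reach the smallest p for any to pass, so this outcome says little about whether the groups differ. H19 stayed at 0 to 6 counts and Dlk1 at 0 to 2 counts in all 16 unfed libraries.

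Afp had 1.27, 1.34, 1.44 and 1.72 FPKM in hepatocyte KO and 1.82, 2.12, 2.63 and 2.42 FPKM in hepatocyte WT. Every KO preparation was below every WT preparation, which held in either direction for 5.94% of genes. The log2 change was -0.71 ± 0.21 (edgeR adjusted p = 0.226), and 0 members were called where 0.32% of genes were. In tissue Afp had 1.56, 1.24, 1.67 and 1.25 FPKM in KO and 1.55, 1.79, 1.16 and 1.54 FPKM in WT (log2 change -0.08 ± 0.22, edgeR adjusted p = 0.876). No member was called in tissue, where 0.008% of genes were, or with both materials pooled, where 0.0253% were (Afp -0.44 ± 0.18, edgeR adjusted p = 0.778). The difference between the materials in the genotype effect on Afp was -0.63 ± 0.30 (edgeR adjusted p = 0.613), and 0% of genes were called for this interaction by edgeR. At an unadjusted p under 0.05 there were 1002 genes, DESeq2 called 36 and limma 3, and Afp was not among them.

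Isolated WT hepatocytes had more Afp than WT whole liver. The 4 hepatocyte WT preparations, at 1.82 to 2.63 FPKM, were all above the 4 tissue WT libraries, at 1.16 to 1.79 FPKM. The log2 change was 0.62 ± 0.21 (edgeR adjusted p = 0.0416), in a comparison where 25.4% of genes were called and 24.3% did not overlap. The call was lost without tissue WT replicates 1, 3 or 4, and without hepatocyte WT replicates 2, 3 or 4, with an adjusted p of up to 0.123, and without the count filter (0.0831). In KO the same comparison gave -0.01 ± 0.21 for Afp (edgeR adjusted p = 0.969), and 0 members were called where 44.1% of genes were.

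Igf2 was set against whole liver in isolated hepatocytes by the same exact test. It had 1, 6, 6 and 4 counts in hepatocyte WT and 4, 7, 6 and 21 counts in tissue WT, without overlap after scaling (exact permutation test, p = 0.0286, adjusted p = 0.286). It had 4, 2, 1 and 0 counts in hepatocyte KO and 7, 3, 16 and 11 counts in tissue KO (exact permutation test, p = 0.0571, adjusted p = 0.381). Without the count filter edgeR called Igf2 lower in hepatocyte KO than in tissue KO (log2 change -2.39, adjusted p = 0.0248). Igf2bp3 had 22, 5, 8 and 5 counts in hepatocyte WT and 0, 0, 0 and 5 counts in tissue WT (exact permutation test, p = 0.0286, adjusted p = 0.286). Gpc3 had 1, 9, 1 and 7 counts in hepatocyte WT and 4, 33, 3 and 18 counts in tissue WT (exact permutation test, p = 0.171, adjusted p = 0.49).

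**Figure D4:**
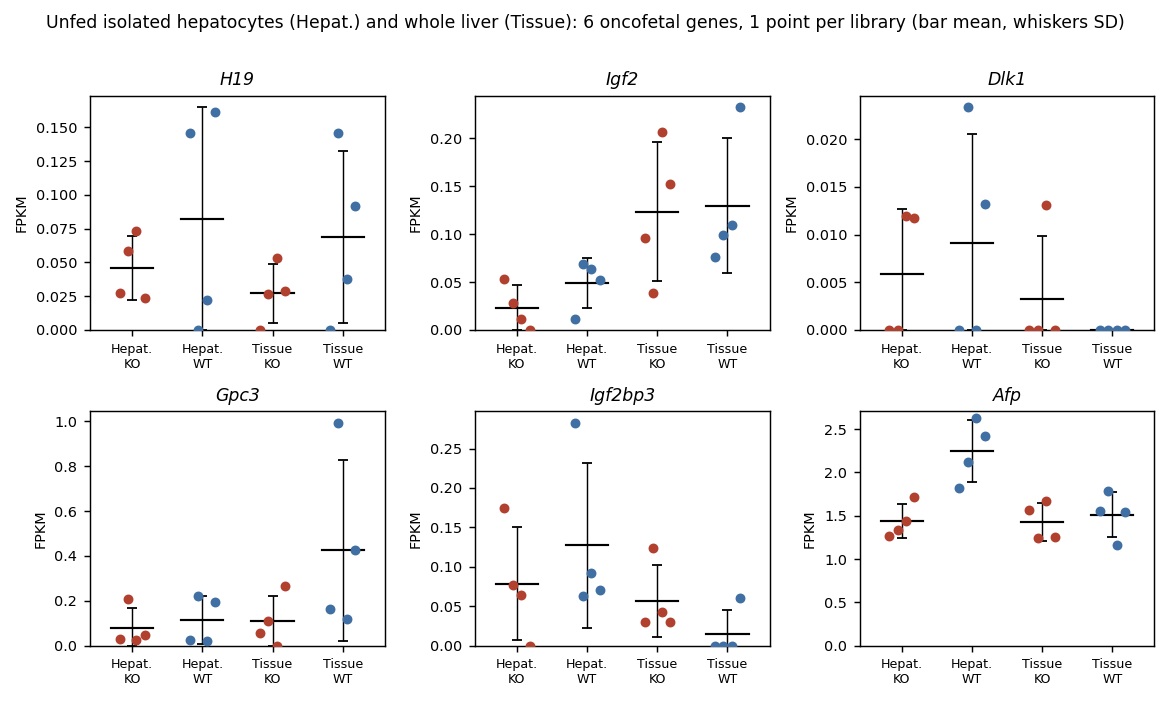
FPKM of the 6 genes in unfed hepatocyte KO, hepatocyte WT, tissue KO and tissue WT, 1 point per library (n = 4 each); bars are means and whiskers SD, cut off at 0. Afp is at 1.82 FPKM or more in the hepatocyte WT libraries and at or below 1.79 FPKM in the other 12, while Dlk1 and H19 stay under 0.2 FPKM.

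The order of the members by mean FPKM, a scale per gene length, differed between fed and unfed liver. H19 stood first in all 4 DDC groups, at 41.5 ± 23.7 FPKM in Virus KO, 37.8 ± 29 in Virus WT, 149 ± 53.5 in Bred KO and 24.6 ± 8.74 in Bred WT (SD, n = 3 each). Afp stood second in each of them, at 1.97 ± 0.153, 2.79 ± 0.404, 2.65 ± 1.03 and 2.76 ± 1.62 FPKM in the same order of groups. In Bred KO it was followed by Gpc3 (1.72 ± 0.415), Igf2 (1.05 ± 0.327), Igf2bp3 (0.516 ± 0.392) and Dlk1 (0.278 ± 0.141), where Afp and Gpc3, and Igf2bp3 and Dlk1, differed by less than the larger SD of each pair. Afp stood first in all 4 unfed groups, at 1.43 to 2.25 FPKM, and the means of the other 5 were at or below 0.425 FPKM. Dlk1 was last in 7 of the 8 groups, and Igf2bp3 was last in Virus WT.

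Across the 12 DDC libraries, Igf2 and Dlk1 were the most alike pair of members (Pearson r of log2(CPM + 1) 0.90), and H19 with Gpc3 had r = 0.66. Afp had r from -0.38 to 0.33 with the other 5. These values describe 12 libraries of 4 groups, where differences between groups raise r. The genes most like Igf2 in these libraries were Specc1 (r = 0.984), Ddhd1 (0.947) and Pgbd5 (0.946). Those most like H19 were Dph2 (0.924), Ighmbp2 (0.876) and Ackr3 (0.874), a chemokine receptor. Those most like Gpc3 were Rem1 (0.939), Gpsm1 (0.919) and Daam2 (0.916), and those most like Dlk1 were Hspa12b (0.951), Mmp28 (0.943), a matrix metalloproteinase, and Sulf2 (0.914). Igf2bp3 was most like Zranb1 (0.983), Rwdd2b (0.926) and Fancm (0.925), and Afp, over both tables, most like Pkn2 (0.790), Csnk1a1 (0.778) and Ric1 (0.769).

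Dlk1 shares its imprinted region on chromosome 12 with Meg3 and Rian, non-coding RNAs read from the maternal copy, and Meg3 lies 77664 bases from it. Rian rose in hepatocyte KO, with 1.4, 2.42, 0.66 and 0.954 FPKM, against 0.0552, 0.229, 0.181 and 0.19 FPKM in hepatocyte WT (log2 change 2.97 ± 0.47, edgeR adjusted p = 0.00695). Dlk1 stayed at 0 to 2 counts in the same 8 libraries. On DDC Meg3 was higher in Virus KO, with 0.0582, 0.113 and 0.139 FPKM, against 0.0184, 0.0187 and 0.0075 FPKM in Virus WT (log2 change 2.59 ± 0.56, edgeR adjusted p = 0.031). The Virus WT values rest on 5, 5 and 2 counts. Meg3 was also called lower in Virus WT than in Bred WT (means 0.0149 and 0.068 FPKM). Over both methods Meg3 (1.78 ± 0.36, edgeR adjusted p = 0.0175), Rian (1.52 ± 0.39, 0.0377) and Peg3, an imprinted zinc finger gene (0.80 ± 0.19, 0.0266), were called higher in KO on DDC. Dlk1 was not (0.87 ± 0.40, 0.192).

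**Figure D5:**
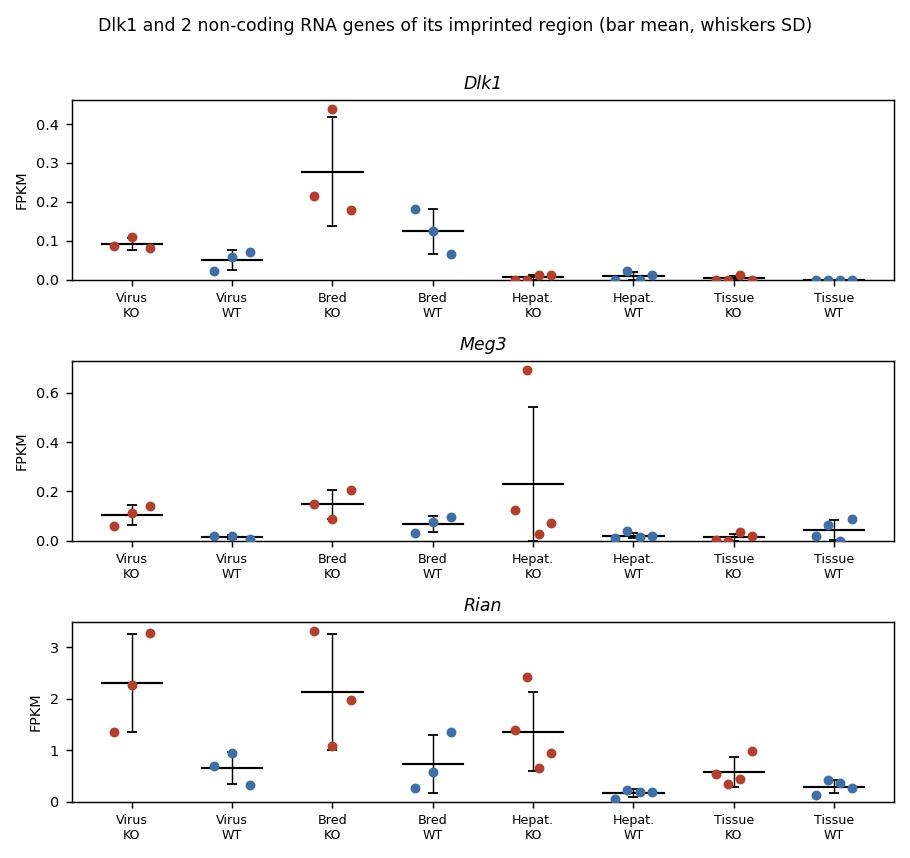
FPKM of Dlk1, Meg3 and Rian in all 8 groups, 1 point per library; bars are means and whiskers SD, cut off at 0. Rian is above all hepatocyte WT values in every hepatocyte KO library (0.66 FPKM or more against 0.229 or less), and Dlk1 is above 0.0234 FPKM in 11 of 12 DDC libraries.

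Of the imprinted gene list, 18 genes besides the members, 1 of 12 tested was called in hepatocytes between KO and WT (Rian), beside 0.32% of all genes. In Virus mice 1 of 15 was called (Meg3), beside 2.66%. None of 12 was called in tissue and none of 15 in Bred mice. Against unfed tissue, 8 of 15 were called on DDC in KO (7 higher and 1 lower), beside 61.8% of all genes, and 7 of 15 in WT (5 higher and 2 lower), beside 45%. The median log2 change was 1.11 in KO and 0.92 in WT, beside 0.18 and 0.06 over all genes. Phlda2, a growth regulator of the placenta, rose by 3.16 in KO (edgeR adjusted p = 2.30e-04) and by 6.57 in WT (adjusted p = 3.14e-06). Dio3, the enzyme that inactivates thyroid hormone, rose by 6.68 (2.06e-04) and 5.21 (0.0102).

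The IGF axis list holds 15 genes of the ligands, receptors and binding proteins around Igf2. On DDC none of 14 tested was called between Bred KO and Bred WT. In Virus mice 1 of 14 was called, Igfbp1, a liver-made binding protein, which fell by 5.25 on the log2 scale (edgeR adjusted p = 0.011). It had 13.7, 24.9 and 28.5 FPKM in Virus KO, against 1062, 254 and 967 FPKM in Virus WT, and it was also called for the difference between the methods (-7.04 ± 1.14, edgeR adjusted p = 0.00853). In Bred livers Igfbp1 had 68, 186 and 26.8 FPKM in KO and 6.66, 45.5 and 25.3 FPKM in WT. The Virus WT livers thus stood above all other DDC livers, while the Virus KO values lay within the Bred range. Igfbp1 was also called higher in Virus WT than in Bred WT. The cause of the high Virus WT values was not tested. Against unfed tissue, 8 of 14 were called in KO (6 higher and 2 lower), beside 61.8% of all genes, and 3 of 14 in WT, all lower, beside 45%. Igf1, the growth factor of adult life, fell in both genotypes while Igf2 was called higher: Igf1 changed by -1.42 in KO (edgeR adjusted p = 8.55e-08) and by -1.33 in WT (4.52e-07). Igfals, which carries Igf1 in serum, changed by -1.91 (2.32e-07) and -1.59 (5.30e-06). Igf2r, which clears Igf2 from the cell surface, rose in KO by 1.34 (1.10e-05) and had 0.52 in WT (0.0529).

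The albumin family and the regulators of Afp form a list of 14 genes, all tested. In Bred mice 3 were called, beside 6.25% of all genes. Gc, the vitamin D binding protein (log2 change -0.56 ± 0.13, edgeR adjusted p = 0.0306), and Afm, afamin (-0.73 ± 0.18, 0.0337), were lower in KO. Trp53 (0.52 ± 0.14, 0.0446) was higher in KO. Afm begins 10024 bases beyond Afp and Alb ends 14110 bases before it. On DDC Afm fell against unfed tissue by 1.88 in KO (edgeR adjusted p = 1.94e-08) and by 1.58 in WT (4.41e-07) on the log2 scale, while Afp was not called. Zhx2, a repressor of Afp in mice, and Zfhx3, known to repress AFP in human cells, rose on DDC in KO by 1.45 (3.81e-06) and 1.70 (7.09e-07), and in WT by 0.70 (0.0108) and 0.71 (0.0124). In all, 10 of 14 were called in KO (6 higher and 4 lower), beside 61.8% of all genes, and 7 of 14 in WT (4 higher and 3 lower), beside 45%.

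Other genes of fetal liver, progenitor cells and tumours form a list of 17. In Bred mice 4 of 14 tested were called, beside 6.25% of all genes. All 4 were higher in KO, with a list median of 0.61 beside -0.01 over all genes. Bex1 rose by 3.30 ± 0.56 (edgeR adjusted p = 0.00886), with 6.82, 10.9 and 4.73 FPKM in Bred KO and 0.668, 0.791 and 0.644 FPKM in Bred WT. Cd24a, a surface protein of progenitor cells, rose by 0.98 ± 0.21 (0.0231), Pkm, the pyruvate kinase of fetal and tumour tissue, by 0.67 ± 0.15 (0.0249), and Prom1, a marker of progenitors, by 1.84 ± 0.46 (0.0363). In Virus mice none of 14 was called. Against unfed tissue, 14 of 15 were called in KO, all higher, beside 61.8% of all genes, and 15 of 15 in WT, beside 45%, 14 of them higher and Hmga2, a chromatin protein, lower (log2 change -2.16, edgeR adjusted p = 0.0288). Cpe, a peptidase of hormone-making cells, rose by 7.10 in KO (1.43e-12) and 7.19 in WT (2.53e-12), and Golm1, a Golgi protein, by 3.64 (8.15e-12) and 3.95 (4.01e-12).

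The glypican and DLK relatives form a list of 9. Sulf2, which trims the sulfate of glypican chains, was 1 of 7 called in Virus KO against Bred KO, beside 3.02% of all genes (log2 change -1.10 ± 0.21, edgeR adjusted p = 0.0206). None of 7 was called between KO and WT in Bred or in Virus mice. On DDC against unfed tissue, 5 of 7 were called higher in KO, among them Sulf1, which acts on the same chains (5.24, 3.35e-05), beside 61.8% of all genes, and 2 of 7 in WT, Dlk2 (4.09, 0.0029) and Gpc1 (1.07, 0.0127), beside 45%. In DDC against unfed tissue, counts of these 5 lists other than that of fetal, progenitor and tumour genes lay near or below the share over all genes. Sulf1 was 1 of 7 called for the difference between the genotypes in this change, beside 3.23% of all genes (4.60 ± 1.21, edgeR adjusted p = 0.036). Gpc4, the neighbour of Gpc3 on chromosome X, was not called on DDC and had 31.1 to 34.9 FPKM in Virus KO, 25.7 to 26.8 in Virus WT, 36.3 to 38.8 in Bred KO and 23.6 to 35.6 in Bred WT.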

How the data were processed

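RNA from 28 mouse livers or hepatocyte preparations was sequenced after removal of ribosomal RNA. The authors used STAR for alignment to mm10 and HTSeq 0.6.1 for counting (submitters' processing notes). Both tables as deposited hold this raw count and the FPKM the authors derived from it. The strand setting was not given in the sources used here. The labels number the libraries and do not state separate animals, so p-values measure the spread between these libraries. Counts entered edgeR 4.0.16 in R 4.3.3, with TMM scaling, filterByExpr (minimum count 10, minimum total 15), quasi-likelihood F tests and Benjamini-Hochberg adjustment at 0.05. There was 1 model for the 16 unfed libraries (12507 genes), 1 for the same libraries pooled by genotype (11857), 1 for the 12 DDC libraries (13955) and 1 for all 28 together (14303). Members under the filter were compared by exact permutation of log2(CPM + 1). The floor of a value at 0 is 3 counts over the group.

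The members, the 5 lists of related genes, the 10 marker lists and the rule for named genes were chosen with earlier results of these data known. Named were all members, Ptk2, genes of the members' regions, up to 4 called genes per list and comparison by the smallest p, and the 3 genes most alike each member. Hmga2 was named after its value was seen. Alternatives covered DESeq2 1.42.0, edgeR scaled by DESeq2 size factors, no filter, limma 3.58.1 on log2(FPKM + 1), removal of a spline in gene length (5 degrees of freedom), the replicate number as a block, material as a term, subsets of libraries alone, and each library left out.

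To see whether replicate numbers pair libraries, deviations from group means were correlated. Bred KO and Bred WT libraries of the same number had r from 0.348 to 0.386, and those of different number from -0.298 to -0.071, so the numbers were taken to pair them, although the labels state no pairing. On simulated data made for Bred KO against WT (13796 genes), the test recovered 10.4% of genes changed 1.5-fold, 41.8% of those changed 2-fold and 87.9% of those changed 4-fold.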

Additional observations from a re-analysis of the deposited data

Results flagged for a closer look

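In groups of 4 unfed libraries, 5 values stood apart from the other 3 of their group by Dixon's test. The test flags about 1 in 20 groups of continuous values by chance, and it always flags a single value above 0 beside 3 at 0. Groups of 3 were not tested. Gpc3 was at 0.21 FPKM in hepatocyte KO replicate 2. Igf2bp3 was at 0.124 FPKM in tissue KO replicate 2, at 0.0604 FPKM in tissue WT replicate 4, where the other 3 were listed at 0, and at 0.283 FPKM in hepatocyte WT replicate 1. Dlk1 was at 0.0131 FPKM in tissue KO replicate 3, which is 1 count, with the other 3 at 0. All 5 rest on 1 to 22 counts.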

How the results depend on the processing

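Of the alternatives tried on single members, 813 results kept their direction and side of the threshold, 36 gained and 17 lost a call, and 37 changed sign. The direction of every called result was kept. With the Bred libraries fitted alone H19 had 2.47 and 0 members were called in Bred KO against WT, where 0 of 13524 genes were called. In Bred KO against WT DESeq2 called 3, limma 3 and the fit with no filter 2. These fits called 1690 of 13136, 1011 of 13955 and 1010 of 20976 genes in the same order. Over both methods DESeq2 called 1, limma 3 and no filter 1, beside 1780 of 13406, 1705 of 13955 and 1002 of 20976 genes. In Virus KO against Bred KO they called 2, 1 and 2, beside 1132 of 13947, 396 of 13955 and 573 of 20976 genes. For the genotype by method no filter called 1, beside 535 of 20976 genes. For the genotype by DDC DESeq2 called 1 and limma 3, beside 1110 of 11529 and 949 of 14303 genes. Isolated hepatocytes against tissue gave 1 member call in KO with no filter, beside 5317 of 19796 genes. In WT no filter gave 0, beside 2793 of 19796, and the replicate block 0, beside 2285 of 12507. Without tissue WT replicates 2 and 4 there were 2, beside 4903 of 12905. Afp in that WT comparison had 0.63 with no filter and 0.62 with the block (adjusted p = 0.106, edgeR). Igf2 on DDC in WT had 1.25 in the Bred and tissue libraries alone.

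Changes of sign touched only values that were not called. Afp had 0.01 in tissue KO against WT without tissue WT replicates 2 and 4. In hepatocyte KO against tissue KO Afp had 0.03 with DESeq2, 0.03 with its size factors, 0.15 with the length trend removed, 0.01 with limma and 0.00 with no filter. Between Virus KO and WT, H19 had 0.21 with limma and 0.15 with the replicate block. Igf2bp3 over both methods had -0.02 with limma. Afp had -0.01 in Virus WT against Bred WT with the length trend removed, and 0.03 with it removed and 0.05 with limma for the genotype by DDC, where Dlk1 had 0.18 with limma.

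With each library left out in turn, log2 changes ran from 2.17 to 2.68 for H19 and -0.50 to 0.41 for Afp in Bred KO against WT, and -0.50 to 0.81 for H19 in Virus KO against WT. On DDC they ran from 1.97 to 3.44 for Igf2bp3 in KO, and in WT from 0.78 to 1.74 for Igf2, -0.03 to 0.79 for Afp and -0.65 to 0.86 for Gpc3. In Virus WT against Bred WT they ran from -0.19 to 0.64 for Afp, -0.75 to 0.41 for Gpc3, -0.19 to 1.01 for H19 and -0.51 to 0.21 for Igf2. Hepatocyte against tissue gave -0.11 to 0.08 for Afp in KO and 0.52 to 0.73 in WT. For the genotype by DDC they ran from -0.37 to 0.52 for Afp and -1.26 to 1.08 for Dlk1, and for the genotype by method from -0.74 to 0.20 for Dlk1. Members called ran from 0 to 2 in Bred, and from 0 to 1 over both methods, for Virus KO against Bred KO, for the genotype by DDC and for hepatocyte against tissue in each genotype. The cause of these changes was not tested.

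The replicate block raised the genes called between Bred KO and WT to 1735, against 872 without it, and lost the Afp call between hepatocyte WT and tissue WT. It changed no other call of a member. Outside Bred mice the numbers did not pair the libraries. Over the alternatives, genes called ran from 1 to 994 in tissue (1 in the fit reported), 5 to 162 in hepatocytes (40), 0 to 1735 in Bred (872) and 64 to 1306 in Virus mice (371). In unfed liver 5 members had low counts, and with 4 libraries a group the exact tests could pass only if 12 of the 20 reached the smallest p.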
